A study of Mus musculus with 4 samples.

Results

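The laminin chains examined here were 9 genes, *Lama1*, *Lama2*, *Lama3*, *Lama4*, *Lama5*, *Lamb1*, *Lamb2*, *Lamb3* and *Lamc1*, chosen by name as the genes that the accessions of the non-control probes mapped to, and they made up 9 of the 45604 genes tested and 16 of the 56605 probes. They were read from septal nasal mucosa of C57BL/6J mice on 4 one-color Agilent arrays, 2 for young adult mice (8 weeks) and 2 for aged mice (16 months), and each array carried the RNA of 5 pooled mice. The collection protocol names no treatment or transgene, and the design text describes the mice as male. The description label of all 4 samples instead names a silica aspiration and CD45-negative cells of the lung, and the tag that holds the age is worded as days after silica. These labels contradict the titles, the source names and the collection protocol, and the groups rest on the latter. All expression levels below are quantile-normalized intensities, and a log2 fold change is the aged mean minus the young adult mean on the log2 scale, so that negative values are lower in aged mice. A gene was called where limma's test gave an unadjusted P below 0.05 together with an FDR (Benjamini-Hochberg, all 45604 genes) below 0.25. A called gene was a DEG where its mean expression reached 100 and its fold change 1.5.

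Laminins are secreted glycoproteins of the basement membrane, each built from an alpha, a beta and a gamma chain that coil together. The alpha chain carries the sites for the cell surface receptors, mainly integrins and dystroglycan, and the assembled laminins form a sheet that nidogens and perlecan tie to a network of type IV collagen. In the olfactory mucosa, basement membranes lie under the basal cells of the epithelium, around the acini of Bowman's glands, around blood vessels, and around the axon bundles and their glia in the lamina propria.

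The septal mucosa identity of the RNA was checked by markers. *Omp* and *Cnga2*, a protein and an ion channel subunit of mature olfactory neurons, and *Cyp2g1*, an enzyme of sustentacular cells, were well above background on all 4 arrays, *Omp* at 286061 to 332591. Of 8 genes listed for lung epithelium, which the description label names, 6 were above background on every array while *Sftpa1* and *Sftpb*, which encode surfactant proteins, were above background on none. *Xist*, a transcript of the female inactive X chromosome, lay at 612 to 645 on the 4 arrays, and *Ddx3y*, *Uty*, *Kdm5d* and *Eif2s3y* of the Y chromosome were not well above background on any of them, which goes against the label of male mice in both ages alike. Young adult array 1 and aged array 1 shared a slide. The study's methods count fewer mice for gene analyses than separate pools would need, and no source says whether the pools of an age shared mice, so P-values measure the spread between pools, which may be partly technical.

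Among the laminin chains, *Lama2* and *Lama4* fell with age and no chain rose. *Lama4*, the alpha chain best known from the basement membrane of blood vessels, was 1.59-fold lower in aged mice, and *Lama2*, the alpha chain of muscle and peripheral nerve, was 1.54-fold lower. The other alpha chains, *Lama1*, *Lama3* and *Lama5*, had log2 fold changes between -0.04 and 0.11. The 4 beta and gamma chains lay between, with log2 fold changes from -0.46 to -0.25 that missed the FDR threshold. Of the 9 chains, 2 were called lower, against 2.33% of all genes tested, and 0 were called higher, against 1.65%. Both were DEGs, against 1.15% of all genes for DEGs lower in aged mice, and 0 chains were DEGs in the other direction, against 0.814%. At an unadjusted P below 0.05 in limma's test, 6 chains were lower, against 7.08% of all genes, and 0 were higher, against 6.05%. A log2 fold change below 0 was measured for 7 of the 9 chains, against 48.5% of all genes. The median log2 fold change of the 9 chains was -0.30, and that of all genes tested was 0.01. These shares of all genes also count dim genes and probes that matched no named gene. Of the 45604, 26727 were well above background on all 4 arrays and 10924 on none, whereas all 9 chains were on all 4. With dim probes left out, 12.4% of genes and 6 of the 9 chains were called lower.

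**Figure D1:**
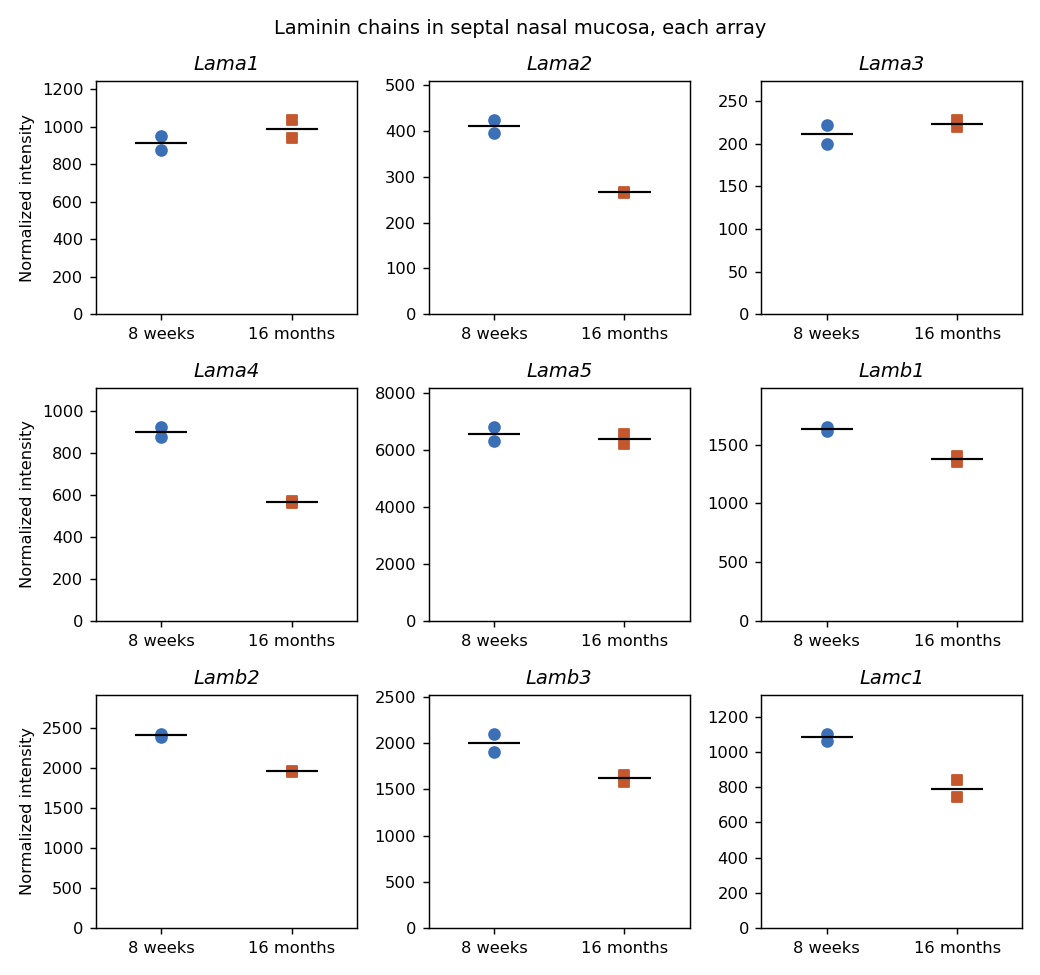
Normalized intensity of each laminin chain on each array, with circles for the 2 young adult pools (8 weeks), squares for the 2 aged pools (16 months) and a bar at each mean; every vertical axis starts at 0 and has its own range. The symbols of the 2 ages are apart for *Lama2*, *Lama4*, *Lamb1*, *Lamb2*, *Lamb3* and *Lamc1*, and overlap for *Lama1*, *Lama3* and *Lama5*.

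The expression level of *Lama4* was 924 and 877 in the young adult pools, with an SD of 33.0 (n = 2), and 560 and 573 in the aged pools, with an SD of 9.57 (n = 2). The ages were apart by several times these SDs. The log2 fold change was -0.67 (standard error 0.08, 95% interval -0.91 to -0.43, FDR = 0.194 by limma). The array holds 2 probes for *Lama4*, which gave log2 fold changes of -0.66 and -0.68, so the bright and the dim probe moved alike.

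*Lama2* had expression levels of 424 and 397 in young adult mice (SD 19.4, n = 2) and 265 and 268 in aged mice (SD 1.72, n = 2). The 2 aged arrays were nearly equal and stood below both young adult arrays. Its log2 fold change was -0.62 (standard error 0.08, 95% interval -0.87 to -0.37, FDR = 0.204 by limma). The brighter of its 2 probes had a log2 fold change of -0.81 and was called by itself (FDR = 0.187 over all probes by limma), whereas the dimmer probe had one of -0.43 and was not (FDR = 0.389). The size of the *Lama2* change therefore depended on the probe, and its direction did not.

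Neither call held when the number of arrays was reduced. With each array left out in turn, the log2 fold change stayed between -0.71 and -0.63 for *Lama4* and between -0.67 and -0.57 for *Lama2*, but the FDR rose to between 0.404 and 0.683 for *Lama4* and between 0.407 and 0.683 for *Lama2*. With any array left out, 0 of all genes were called lower. Within the slide that held both ages, the log2 differences were -0.72 for *Lama4* and -0.68 for *Lama2*, and between the other arrays they were -0.61 and -0.57, values from 1 array of each age with no test.

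The other alpha chains gave levels that overlapped between the ages. *Lama5*, the most widespread alpha chain of adult epithelium and blood vessels, was at 6331 and 6832 in young adult mice and 6242 and 6588 in aged mice. Its log2 fold change of -0.04 (95% interval -0.31 to 0.23, FDR = 0.887 by limma) was smaller than the spread between pools. *Lama3*, the alpha chain that anchors stratified epithelium, was at 222 and 200 in young adult mice and 219 and 228 in aged mice, which gives a log2 fold change of 0.08 (95% interval -0.21 to 0.38, FDR = 0.751). Both of its probes had small positive values, 0.08 for the brighter and 0.09 for the dimmer. *Lama1*, an alpha chain of early embryonic basement membranes that few adult tissues keep, was at 877 and 952 in young adult mice and 939 and 1036 in aged mice, and its log2 fold change was 0.11 (95% interval -0.20 to 0.42, FDR = 0.695). For these 3 genes the intervals leave room for changes in either direction, and all 3 end above the values measured for *Lama4* and *Lama2*.

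**Figure D2:**
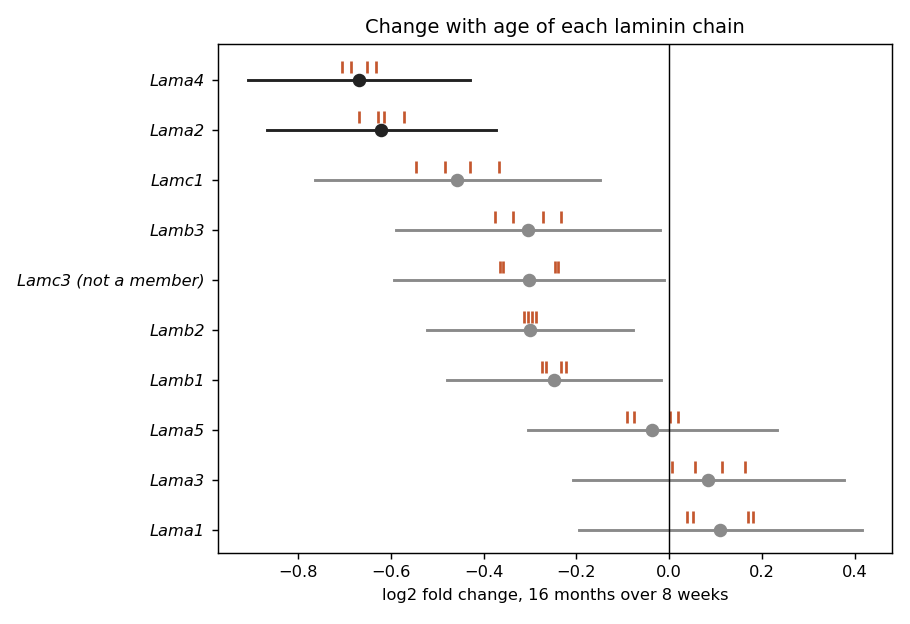
Log2 fold change (16 months over 8 weeks) of each laminin chain, with *Lamc3* added, with its 95% interval from limma, black for the called genes *Lama4* and *Lama2* and grey for the others; orange ticks are the values with each of the 4 arrays left out in turn. The intervals of *Lama4* (-0.91 to -0.43) and *Lama2* (-0.87 to -0.37) lie farthest from 0, and those of *Lama1*, *Lama3* and *Lama5* cross it.

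Promoter sequences are shown for a called alpha chain, an alpha chain that was not called and a shared beta chain, to set members with different changes side by side. Windows from the RefSeq promoter table (GRCm38.p6) were read for 5 of the 9 members, *Lama2*, *Lama5*, *Lamb1*, *Lamb2* and *Lamb3*. They give 250 bases before and 50 bases after the start of the gene on its own strand. Capitals mark the GC box, searched as GGGCGG and, for the other strand, CCGCCC. The windows are chr10:27616893-27617192 on the minus strand for *Lama2*, chr2:180225810-180226109 on the minus strand for *Lama5* and chr12:31265043-31265342 on the plus strand for *Lamb1*.
Lama2: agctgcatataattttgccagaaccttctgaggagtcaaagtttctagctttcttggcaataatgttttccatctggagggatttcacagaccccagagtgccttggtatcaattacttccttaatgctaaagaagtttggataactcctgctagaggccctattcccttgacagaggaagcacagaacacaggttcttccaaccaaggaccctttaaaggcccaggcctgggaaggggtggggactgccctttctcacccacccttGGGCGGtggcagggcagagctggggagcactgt
Lama5: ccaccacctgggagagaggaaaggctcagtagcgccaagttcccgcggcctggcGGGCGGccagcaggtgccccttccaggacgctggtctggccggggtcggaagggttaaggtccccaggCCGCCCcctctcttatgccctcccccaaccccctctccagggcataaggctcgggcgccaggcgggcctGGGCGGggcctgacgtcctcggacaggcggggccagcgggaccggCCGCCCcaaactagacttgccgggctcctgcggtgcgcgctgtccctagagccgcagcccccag
Lamb1: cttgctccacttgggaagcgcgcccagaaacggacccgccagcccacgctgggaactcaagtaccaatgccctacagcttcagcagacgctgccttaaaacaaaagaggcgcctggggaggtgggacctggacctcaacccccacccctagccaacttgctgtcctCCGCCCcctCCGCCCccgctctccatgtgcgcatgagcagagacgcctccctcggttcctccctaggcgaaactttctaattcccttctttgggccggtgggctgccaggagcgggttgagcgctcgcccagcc

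The *Lama2* window held 1 GC box and 1 CpG dinucleotide, with a GC content of 50.3%. That of *Lama5* held 4 GC boxes and 24 CpG dinucleotides at 72.7% GC, and that of *Lamb1* held 2 GC boxes and 18 CpG dinucleotides at 63.7%. Neither strand of the *Lamb2* window held a GC box (44.0% GC, 4 CpG dinucleotides). Neither window of *Lamb3* held one (59.3% GC in each, 2 and 5 CpG dinucleotides). Over all 32851 promoters in the table, 35.7% held at least 1 GC box, and the medians were 52.7% GC and 7 CpG dinucleotides. No TATA box, searched as TATAAA and TTTATA, was in the windows of these 5 genes, and 13.6% of all promoters held that motif. These counts describe the letters of the windows and were not tested against the changes with age.

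The beta and gamma chains complete the trimers. *Lamc1*, the gamma chain of most laminins, was at 1106 and 1064 in young adult mice and 841 and 743 in aged mice. Both aged arrays were lower, and they differed from each other by more than the young adult arrays did. The log2 fold change was -0.46 (standard error 0.10, 95% interval -0.76 to -0.15, FDR = 0.282 by limma). Its brighter probe had a log2 fold change of -0.42 and passed both criteria over all probes (FDR = 0.231), and the dimmer one, at -0.49 with a standard error of 0.16, did not (FDR = 0.356).

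*Lamb1*, the beta chain found in most basement membranes, was at 1653 and 1616 in young adult mice and 1400 and 1350 in aged mice, a difference of -0.25 on the log2 scale that limma put at FDR = 0.358 (standard error 0.08). Its 3 probes disagreed, with log2 fold changes of -0.41, -0.32 and -0.02 from the brightest to the dimmest. *Lamb2*, which takes the place of *Lamb1* in laminins of the neuromuscular junction, the kidney filter and vessel walls, was at 2392 and 2435 in young adult mice and 1967 and 1953 in aged mice. The spread within each age was small, and the single probe put the change at -0.30 on the log2 scale (FDR = 0.299 by limma, standard error 0.07). *Lamb3*, the beta chain that pairs with *Lama3* in epithelium, was at 2105 and 1905 in young adult mice and 1584 and 1659 in aged mice, where limma put the change at -0.30 on the log2 scale (standard error 0.10, FDR = 0.361), with values of -0.31 and -0.30 for its 2 probes.

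The 2 ages did not overlap, with the aged pools lower, for 6 of the 9 laminin chains, against 21.8% of all genes tested, and with the aged pools higher for 0, against 24.2%. The 6 were *Lama2*, *Lama4* and all 4 beta and gamma chains. All 16 probes were well above background on every array, so that no level was a bound. Of the 16 probes, 13 had a log2 fold change below 0 and 3 above 0, the latter being the probe of *Lama1* and both probes of *Lama3*, and 4 passed both criteria over all probes. Of all genes, 2.33% were called lower as reported and 5.43% with a normexp offset of 50. With dim probes left out the share was 12.4%, and with an intensity trend in eBayes it was 7.71%. How many chains were called likewise depended on the handling of background, dim probes and moderation. It was 6 with a normexp offset of 50, with dim probes left out or with an intensity trend in eBayes, each time *Lama2*, *Lama4*, *Lamb1*, *Lamb2*, *Lamb3* and *Lamc1*, and it was 0 with any array left out or with the replicate number as a block.

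**Figure D3:**
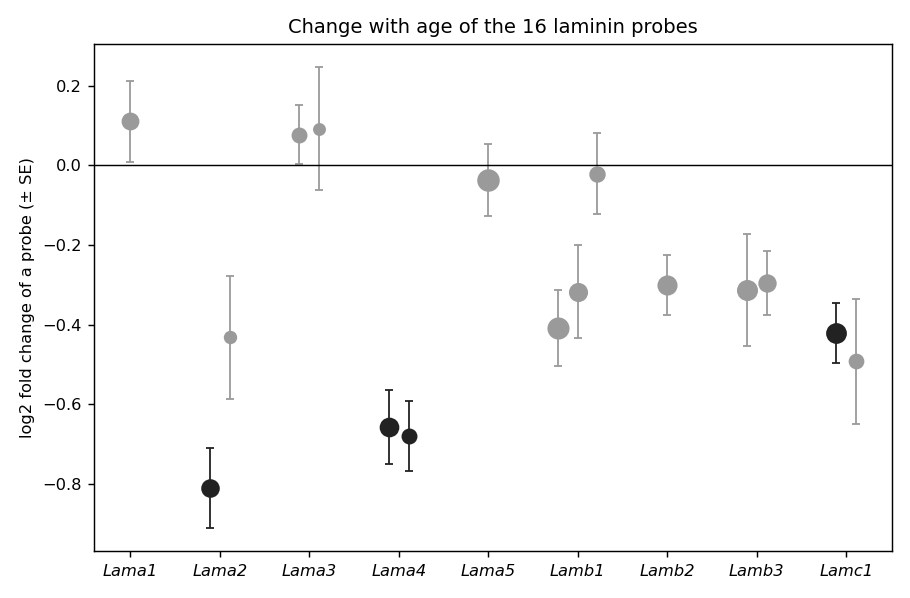
Log2 fold change (16 months over 8 weeks) of each of the 16 laminin probes with its standard error, ordered within a gene from the brightest to the dimmest; larger symbols are brighter probes, and black marks the 4 that passed P and FDR over all probes. The brighter probe of *Lama2* (-0.81) had the lowest value, and the probes of *Lamb1* ran from -0.41 to -0.02.

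*Lamc3*, a gamma chain that was not among the 9 members, was measured by 1 probe. It was at 147 and 160 in young adult mice and 129 and 120 in aged mice, and its log2 fold change was -0.30 (FDR = 0.369 by limma). The aged pools were lower without overlap, and the difference missed the FDR threshold.

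When the chains were arranged by the basement membranes they are best known from, the mean log2 fold change was -0.46 for the nerve and muscle chains *Lama2* and *Lamb2*, -0.35 for the vascular chains *Lama4* and *Lama5*, -0.35 for the widely shared chains *Lamb1* and *Lamc1*, and -0.11 for the epithelial chains *Lama3* and *Lamb3*. The vascular mean joined values of -0.67 and -0.04, and the epithelial mean joined values of 0.08 and -0.30, so neither pair moved as a unit. The vascular chains changed by -0.24 relative to the epithelial chains and the nerve chains by -0.35. Within the slide that held both ages these differences were -0.16 and -0.26, and between the other arrays -0.33 and -0.44. *Lama5* also belongs to epithelium, and with it counted there, an assignment made after the values were seen, the vascular difference was -0.58 and the nerve difference -0.38. These differences are descriptions without a P, because the chains were chosen with earlier results of these data known.

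Ratios of chains within an array showed where the mix of chains shifted. The log2 ratio of *Lama4* to *Lama5*, centred on its mean over the arrays, was 0.41 and 0.22 in the young adult pools and -0.29 and -0.34 in the aged pools, a change of -0.63. The ratio of *Lama4* to *Lama3* changed by -0.75 and that of *Lama2* to *Lama3* by -0.71, and that of *Lama2* to *Lama1* by -0.73. In contrast, the ratio of *Lama2* to *Lama4* changed by 0.05 and that of *Lamb1* to *Lamb2* by 0.05. Between the epithelial partners, the ratio of *Lama3* to *Lamb3* was -0.19 and -0.20 in the young adult pools and 0.20 and 0.19 in the aged pools, a change of 0.39 in the direction of *Lama3*. Relative to *Lamc1*, the chain they share a trimer with, *Lama4* changed by -0.21 and *Lama2* by -0.16, and on the other arrays than those of the shared slide these values were -0.10 and -0.05. These are descriptions from 4 arrays, and a shift in a ratio of transcripts does not give the amount of assembled laminin.

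**Figure D4:**
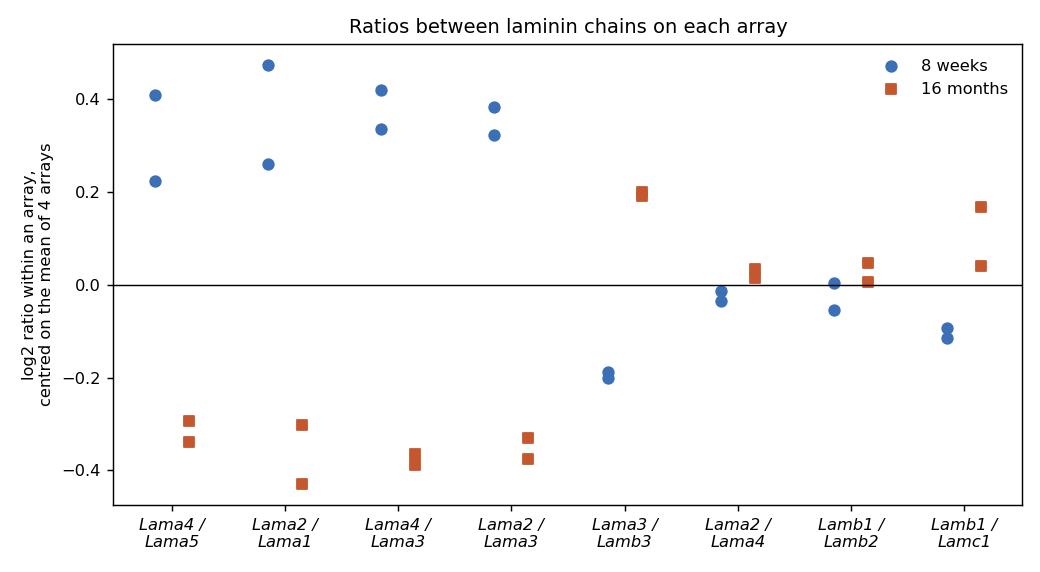
Log2 ratio between the levels of a pair of laminin chains on each array, centred on the mean of the 4 arrays, with circles for young adult pools (8 weeks) and squares for aged pools (16 months). The ratios of *Lama4* and *Lama2* to other alpha chains were lower on both aged arrays, while *Lama2* to *Lama4* moved by only 0.05.

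The partners of laminin in the basement membrane were followed with a list of 26 genes. Of these, 6 were called lower (2.33% of all genes tested) and 0 higher (1.65%), the median log2 fold change was -0.29, and 17 had both aged arrays below both young adult arrays (21.8% of all genes). The 6 were *Sparc*, a collagen-binding matricellular protein (-1.19, FDR = 0.174 by limma), *Col4a2* (-1.02, FDR = 0.178) and *Col4a1* (-0.82, FDR = 0.178), the chains of the common type IV collagen, *Hspg2*, which encodes perlecan (-0.76, FDR = 0.201), and *Nid1* (-0.62, FDR = 0.248) and *Nid2* (-0.59, FDR = 0.222), the nidogens that link laminin to collagen. All 6 were DEGs. *Nid1* rested on 2 probes with log2 fold changes of -0.81 and -0.44, the dimmer of them well above background on 1 of the 2 aged arrays. *Agrn*, a proteoglycan that binds the coiled coil of laminin, had a log2 fold change of -0.09 (FDR = 0.934), the mean of a bright probe at -0.44 and a dim probe at 0.26 whose aged values of 201 and 58.8 lay far apart. *Col4a3* was not well above background on any array, and *Col4a6* had a log2 fold change of -0.15 (FDR = 0.674). The fits with an array left out say nothing particular about the partners, because they called no gene in either direction.

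Among 13 genes for laminin receptors, 1 was called lower (2.33% of all genes tested), 0 were called higher (1.65%), and the median log2 fold change was -0.23. The one called was *Itga6*, the integrin alpha subunit of basal epithelial cells, vessels and glia, at 1928 and 1996 in young adult mice and 1338 and 1243 in aged mice (log2 fold change -0.61, FDR = 0.209 by limma), and it was not called with 75th percentile scaling. Its 3 probes had log2 fold changes of -0.69, -0.68 and -0.44. *Itgb4*, its partner in hemidesmosomes, had a log2 fold change of -0.39 (FDR = 0.262), *Itgb1*, the partner of most laminin-binding integrins, one of -0.20 (FDR = 0.432) and *Itga3* one of -0.25 (FDR = 0.503). *Dag1*, which encodes dystroglycan, had a log2 fold change of -0.24 (FDR = 0.496), and *Bcam*, a receptor for the product of *Lama5*, one of -0.23 (FDR = 0.454). The aged pools were lower without overlap for 10 of the 13 receptors (21.8% of all genes) and higher for 2 (24.2%).

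Inside the cell, dystroglycan connects laminin to dystrophin and utrophin, and enzymes of its sugar chain decide whether laminin binds. In a list of 21 such genes, the median log2 fold change was -0.11, 2 were called lower (2.33% of all genes tested) and 0 higher (1.65%). The 2 were the sarcoglycans *Sgce* (-0.60, FDR = 0.217 by limma) and *Sgcd* (-0.46, FDR = 0.242). Another sarcoglycan, *Sgca*, went the other way without being called (0.68, FDR = 0.316). It was at 79.8 and 59.8 in young adult mice and 106 and 116 in aged mice. Of the 21 genes, 14 had a log2 fold change below 0 and 7 above 0. *Pomk*, a kinase that acts on the sugar chain, had a log2 fold change of 0.01 (FDR = 0.973), and *Utrn* had one of -0.27 (FDR = 0.41). Of 8 hemidesmosome genes, 2 were called lower (2.33% of all genes) and 0 higher (1.65%), *Itga6* and the basal keratin gene *Krt5* (-0.49, FDR = 0.216), and the median was -0.33. *Col17a1* and *Krt14* had log2 fold changes of -0.35 (FDR = 0.31) and -0.30 (FDR = 0.313).

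Markers of the cells that make each laminin were read beside the chains, and in bulk mucosa fewer cells of a type and less RNA per cell cannot be told apart. Beside *Lama4*, 7 of 12 endothelial markers were called lower (2.33% of all genes) and 0 higher (1.65%), with a median log2 fold change of -0.54. Their summed level was 25065 to 25327 in young adult mice and 16987 to 17089 in aged mice, and all 12 were well above background on every array. The 7 called were *Tie1*, *Emcn*, *Eng*, *Vwf*, *Flt1*, *Kdr* and *Cldn5*, with log2 fold changes from -0.84 to -0.46, whereas *Pecam1* and *Cdh5* had values of -0.33 (FDR = 0.361 by limma) and -0.39 (FDR = 0.335). Of 11 markers of smooth muscle and pericytes, which also border the vascular basement membrane, 5 were called lower (2.33% of all genes) and 0 higher (1.65%), with a median of -0.37 and summed levels of 62541 to 64449 and 60717 to 61720. The 5 were *Kcnj8*, *Cspg4*, *Myh11*, *Abcc9* and *Cnn1*, with log2 fold changes from -0.95 to -0.52, while *Acta2* had one of -0.22. Of the 11 markers 9 had a log2 fold change below 0 and 2 above 0, the highest being 0.17. These 2 had both aged arrays above both young adult arrays (24.2% of all genes). The part of these cells in the change of *Lama4* was not tested.

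Beside *Lama2*, 5 of 11 Schwann cell markers were called lower (2.33% of all genes) and 0 higher (1.65%), with a median log2 fold change of -0.49 and a summed level of 33157 to 34566 in young adult mice and 28474 to 29601 in aged mice. *Mbp*, a gene of peripheral myelin, had a log2 fold change of -0.52 (FDR = 0.21 by limma), and *Pmp22*, another myelin gene, one of -0.50 (FDR = 0.233). Of the 11 Schwann cell markers 10 had a log2 fold change below 0 and 1 above 0. The latter was *Gldn* (0.16, FDR = 0.552), with both aged arrays above both young adult arrays. *Sox10* had a log2 fold change of -0.07 (FDR = 0.776), and its levels overlapped between the ages. Of 7 markers of olfactory ensheathing cells, the glia of the olfactory nerve, 3 were called lower (2.33% of all genes) and 0 higher (1.65%), with a median of -0.47 and summed levels of 36262 to 36962 and 25566 to 27087. They were *Fabp7* at -0.62 (FDR = 0.217 by limma), *Npy* at -0.58 (FDR = 0.203) and *Ngfr* at -0.47 (FDR = 0.233), while *Frzb* was at -0.09 (FDR = 0.654). Fibroblast markers, of which 6 of 10 were called lower (2.33% of all genes) and 0 higher (1.65%), had a median of -0.66 and summed levels of 229833 to 254331 and 122409 to 129928. The 6 included the collagen genes *Col1a1* and *Col3a1*, with log2 fold changes of -1.98 and -1.97, whereas *Pdgfra* and *Dcn* had log2 fold changes of -0.29 (FDR = 0.433) and -0.19 (FDR = 0.628). For skeletal muscle, another source of *Lama2*, 4 of 8 markers were well above background on all 4 arrays and 1 on none. *Ckm* was at 33.2 to 49.6 and well above background on 1 of 4 arrays, and *Acta1* was at 1456 to 1924. Of 8 muscle markers, 0 were called lower (2.33% of all genes) and 0 higher (1.65%). At an unadjusted P below 0.05 in limma's test, 1 was lower (7.08% of all genes) and 1 higher (6.05%). The part of glia, fibroblasts or muscle in the change of *Lama2* was not tested.

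Beside *Lama3* and *Lamb3*, 3 of 10 basal epithelial markers, some of them also hemidesmosome genes, were called lower (2.33% of all genes) and 0 higher (1.65%), with a median log2 fold change of -0.33 and a summed level of 74950 to 76597 in young adult mice and 58850 to 59404 in aged mice. The 3 were the basal keratin gene *Krt15* (-0.82, FDR = 0.178 by limma), *Itga6* and *Krt5*. *Trp63*, the defining transcription factor of horizontal basal cells, was at 4964 and 4969 in young adult mice and 5120 and 5168 in aged mice, and its log2 fold change was 0.05 (FDR = 0.802 by limma). Markers of mature olfactory neurons and of sustentacular cells had medians of 0.20 and 0.08. Of the 10 neuronal markers 0 were called lower (2.33% of all genes) and 1 higher (1.65%), *Stoml3* (0.43, FDR = 0.244 by limma). All 10 neuronal markers had both aged arrays above both young adult arrays (24.2% of all genes). Of the 8 sustentacular markers 0 were called in either direction. At an unadjusted P below 0.05 in limma's test, 1 sustentacular marker was lower (7.08% of all genes) and 1 higher (6.05%).

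**Figure D5:**
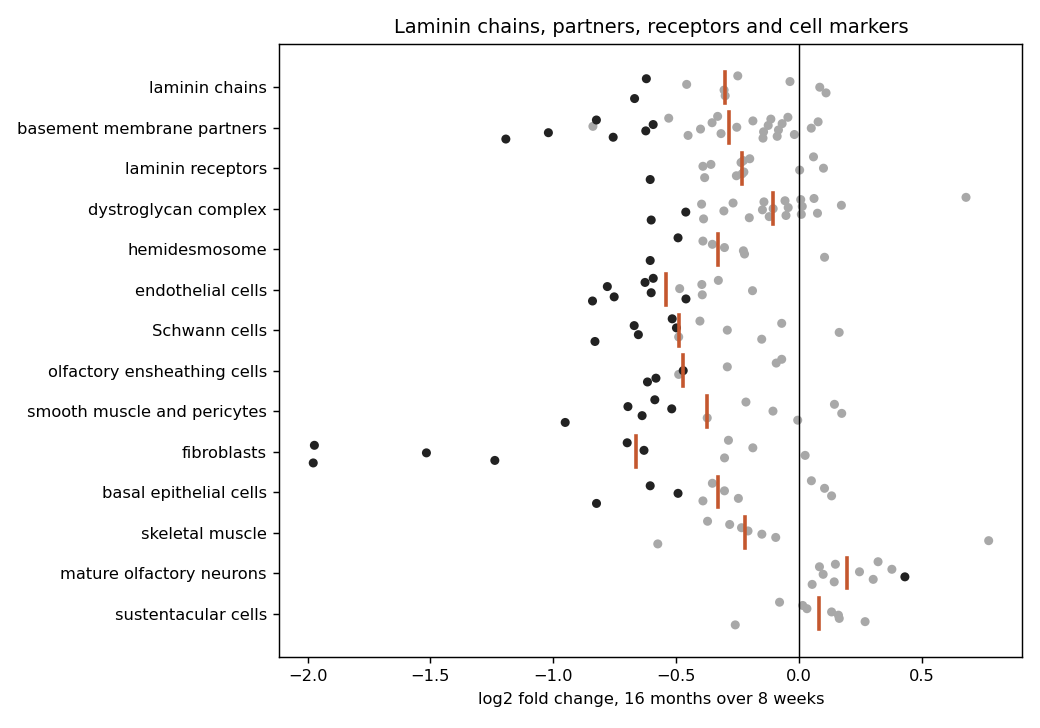
Log2 fold change (16 months over 8 weeks) of each gene in the laminin list, the lists of partners, receptors and linked proteins, and the marker lists; black points passed P and FDR, grey points did not, and the orange bar is the median of the list. The laminin chains (median -0.30) lay near the basement membrane partners (-0.29), to the right of the endothelial (-0.54) and fibroblast (-0.66) markers and to the left of the neuronal markers (0.20).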

How the data were processed

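Total RNA of septal nasal mucosa, pooled from 5 mice per sample, was hybridized to Agilent SurePrint G3 Mouse arrays. The authors read the scans with the Feature Extraction software, version 11.0.1.1, and the labels name R 3.2.1 for their analysis. The deposited files give for every spot a median pixel intensity, a local background intensity, a background-subtracted processed intensity and quality flags, and their values were not normalized across arrays. The deposited series table repeated the processed intensity (62976 of 62976 spots per array), within a relative tolerance of 1e-06.

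Background was removed from the median intensity with the normexp method of limma 3.58.1 (R 4.3.3) at an offset of 0, as the methods name none. Control spots and outlier flags were left out, spots of a probe were averaged, log2 values were quantile normalized and probes of a gene were averaged. Accessions without versions were matched to RefSeq (GRCm38.p6): 32994 of 56605 probes matched. The other probes kept the array's own name and were counted among the genes under it. The array design names another build, so no coordinates were given for probes, and 12 genes without a value on every array were dropped. The age difference was fitted with lmFit and eBayes on all 4 arrays without covariates. In simulated arrays of these 45604 genes, 126 of 200 genes changed 2-fold were recovered as DEGs, and 2 unchanged genes were DEGs. In a simulation without changes, 0 genes were called. The number of arrays limits the precision, with 2 residual and 1.38 prior degrees of freedom. Of the non-control spots, 63.1 to 76.8% per array were well above background, and no spot was saturated. Arrays of one age correlated at 0.987 across genes. Arrays of different ages correlated at 0.982 on the shared slide and at 0.989 for the other arrays, so arrays of one age were not always the more alike.

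The members and all lists were chosen with earlier results of these data known. Named are all 9 members, *Lamc3*, the called genes (at most 6 a list) of the partner, receptor, dystroglycan and hemidesmosome lists with fixed binding partners and receptors, and up to 2 first markers of the cell type lists described. Other named genes, among them *Trp63*, *Col4a3*, *Col4a6*, *Pomk*, *Utrn*, *Sgca*, *Gldn*, *Sox10*, *Col17a1*, *Stoml3* and the called markers, were chosen after their values were seen. Lists of cartilage (2 of 8 called lower, median log2 fold change -0.26), bone (4 of 8, -0.75), leukocytes (2 of 8, -0.34) and lung epithelium (1 of 8, -0.18) were also read. Of all genes 2.33% were called lower and 1.65% higher, and 0 genes of these lists were called higher. The summed level of the bone genes was 25743 to 28180 in young adult mice and 13505 to 14205 in aged mice. Alternatives covered background, normalization, flags, dim probes, probe averaging, moderation, the replicate number as a block, the shared slide, each array left out and other thresholds. A list was described by its counts and median, with no set test. Some genes that the rule would name are not reported here.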

Additional observations from a re-analysis of the deposited data

How the results depend on the processing

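The sign of the change held under every alternative for 7 of the 9 chains, all but *Lama3* and *Lama5*, and the calls did not hold. The number of laminin chains called lower was 2 as reported. The calls over all genes changed with the setting as well, from 2.33% lower as reported (1063 lower as reported, 2475 with an offset of 50, 3671 with dim probes left out). The number of chains was 4 with a normexp offset of 16 (3.71% of all genes called lower), without background correction (4.91%) or with probes averaged on the linear scale (3.51%). It was 5 with the processed signal and quantile normalization (5.14%). It was 6 with an offset of 50 (5.43%), with dim probes left out (12.4%) or with an intensity trend (7.71%). It was 0 at an FDR below 0.05, 0 with the replicate block and 0 to 0 with each array left out. The number of chains that were DEGs fell from 2 to 1 with an offset of 50 or without background correction, where *Lama2* had a fold change below 1.5, and was 0 at a fold change of at least 2, 0 with the replicate block and 0 to 0 with each array left out. The replicate number marks no stated batch or litter. The 2 arrays numbered 1 shared a slide and had median backgrounds of 67 (young adult) and 63 (aged), against 32 and 39 for those numbered 2. Their spots well above background were 68.1 and 63.1%, against 76.8 and 72.7%. Deviations of same-numbered arrays from their age means correlated at -0.078, and the block was not treated as a pairing. This choice does not exclude a difference between hybridizations. With the block, 0 genes of all tested were called. *Lama2* and *Lama4* were called in 12 of 13 tested settings that kept all arrays, and *Lama1*, *Lama3* and *Lama5* in none.

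Partners called lower numbered 6 as reported (2.33% of all genes), 10 without background correction (4.91%), 10 with the most intense probe (3.09%) and 10 with linear averages (3.51%). They numbered 11 with the processed signal and quantile normalization (5.14%), 12 with an offset of 50 (5.43%), 12 without dim probes (12.4%) and 14 with a trend (7.71%). With the replicate block they numbered 0 (0% of all genes). Receptors called lower numbered 1 as reported (2.33% of all genes). They numbered 3 with an offset of 16 (3.71%) or 50 (5.43%), without background correction (4.91%) or with the processed signal and quantile normalization (5.14%). With cyclic loess (3.02%), the most intense probe (3.09%) or linear averages (3.51%) they also numbered 3. They numbered 8 without dim probes (12.4%), 9 with a trend (7.71%), 0 with 75th percentile scaling (1.81%) and 0 with the replicate block (0%).

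The median of the 9 chains was -0.30, -0.32 with the processed signal and quantile normalization, -0.28 within the shared slide, and -0.30 to -0.23 with each array left out. The vascular minus epithelial difference was -0.24, -0.16 within the slide, -0.58 with *Lama5* counted as epithelial, and -0.33 to -0.16 with each array left out. The nerve minus epithelial difference was -0.35, -0.44 with the most intense probe, -0.42 with linear averages, -0.26 within the slide and -0.41 to -0.29 with each array left out. Signs turned only for uncalled chains: *Lama3* was at -0.022 within the slide, and *Lama5* ran from -0.091 to 0.018 with each array left out (0.018 without young adult array 2 and 0.0024 without aged array 1). A slide as a random block could not be fitted with 4 arrays. The cause of each shift was not tested, beyond fewer arrays or genes where these define the setting.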
